A study of Rattus norvegicus with 24 samples.

Results

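METH (methamphetamine) given once to rats that had never received it is described here, as 6 arrays of the group labelled SM against 4 arrays of the group labelled SS, which are 10 of the 24 arrays of the series. Members were taken by the group letters in the sample titles alone. SM rats were injected first with saline and, after a delay of a month, with METH at 2.5 mg/kg, and SS rats were injected with saline on both occasions. The other arrays belong to rats injected first with METH at 10 mg/kg and then with METH at 2.5 mg/kg (MM, 7 arrays) or with saline (MS, 7 arrays), and they serve below to set one acute challenge beside another. All were male Sprague-Dawley rats euthanized 2 h after the second injection. By the labels the tissue was nucleus accumbens (NAc) and its source striatal. The study counts its microarray groups in rats, but no label ties an array to 1 rat, and the p-values measure only the spread between these samples, which may in part be technical. Samples carry the numbers of their labels (SM samples 2, 5, 11, 14, 17 and 22; SS samples 1, 8, 15 and 20), which pair no samples.

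Total RNA was read on 1-colour Illumina BeadChips, where the brightness of a bead reports the amount of a transcript. Median deposited intensities were 11.4 to 23 on SM arrays and 10 to 17.1 on SS arrays, and 49.4% to 53.1% of probes were detected on SM arrays, against 49.7% to 53.8% on SS arrays. Each of the 2 slides held 3 SM and 2 SS arrays. SM sample 11 and SS sample 1 stood somewhat apart, with array weights of 0.25 and 0.34. Levels below are log2 intensities after background correction with an offset of 16, which pulls the differences of dim probes toward 0, and quantile normalization. Levels of different probes cannot be set against each other. With 6 and 4 arrays, precision is limited by their number.

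METH enters dopamine terminals and releases dopamine into the NAc, whose main cells are GABAergic medium spiny neurons. Those that carry D1 receptors raise cAMP when dopamine arrives, which activates protein kinase A and the transcription factor CREB, while D2 receptors lower cAMP. CREB and the ERK kinases switch on immediate early genes such as Fos within minutes, without new protein synthesis, and the products of these genes then act on later targets. The NAc also uses many neuropeptides, among them enkephalin, substance P and CART (cocaine- and amphetamine-regulated transcript), a peptide known for its response to psychostimulants.

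CREB binds the cAMP response element TGACGTCA or its core TGACG. The 250 bases before the start of 4 genes that were higher in SM are shown because they hold such letters. They are Cartpt, which the study names, and those of the early factors that rose whose promoter in the table held a core site. Among the early factors that rose, Klf4 held no core site, and Fos and Nr4a3 had no promoter in the table. Avp, which the study names and which was higher in SM, held 1 core site and is not shown. Crh had no promoter in the table. Ier2, an early factor that fell, also held 1 full element and is not shown. Capitals mark the full element in Cartpt and a core site, TGACG or its reverse complement CGTCA, in the others. Both strands were searched, and the full element in Cartpt contains 2 core sites that overlap.
Cartpt: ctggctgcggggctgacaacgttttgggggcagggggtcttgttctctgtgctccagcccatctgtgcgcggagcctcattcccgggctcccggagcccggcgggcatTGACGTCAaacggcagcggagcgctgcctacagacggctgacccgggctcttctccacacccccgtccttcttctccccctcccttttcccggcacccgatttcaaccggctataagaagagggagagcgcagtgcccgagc
Egr4: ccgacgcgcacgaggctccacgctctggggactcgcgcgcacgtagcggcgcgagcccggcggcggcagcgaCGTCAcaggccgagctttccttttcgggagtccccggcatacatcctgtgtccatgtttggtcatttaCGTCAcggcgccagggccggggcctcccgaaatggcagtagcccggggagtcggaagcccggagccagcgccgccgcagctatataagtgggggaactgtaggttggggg
Junb: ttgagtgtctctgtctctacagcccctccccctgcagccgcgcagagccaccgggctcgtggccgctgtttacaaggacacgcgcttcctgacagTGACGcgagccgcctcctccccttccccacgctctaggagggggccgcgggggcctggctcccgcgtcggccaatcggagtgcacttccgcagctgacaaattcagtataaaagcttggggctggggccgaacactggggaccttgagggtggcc
Egr2: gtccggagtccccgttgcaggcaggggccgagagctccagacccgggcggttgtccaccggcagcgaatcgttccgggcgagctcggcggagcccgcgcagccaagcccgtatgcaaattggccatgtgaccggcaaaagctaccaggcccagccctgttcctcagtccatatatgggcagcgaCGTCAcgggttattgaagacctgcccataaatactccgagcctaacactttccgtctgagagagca
The sequences are RefSeq's on the GRCr8 build, written 5′ to 3′ on the strand of each gene, for Cartpt chr2:32991236-32991485 (minus strand), for Egr4 chr4:119607818-119608067 (minus), for Junb chr19:40080876-40081125 (plus) and for Egr2 chr20:21054442-21054691 (minus). The element began 142 bases before the start in Cartpt, and core sites began 178 and 110 bases before it in Egr4, 155 in Junb and 66 in Egr2. Of 33469 promoters of this length in the table, 1.59% held the full element and 18.2% held a core site. Counted by gene, where any promoter of a gene could hold the letters, the full element stood in 2.79% of 466 genes higher in SM. It stood in 1.29% of 619 genes lower in SM, against 2.93% of the 7394 named genes tested that had a promoter in the table. The core site stood in 27.5%, 24.7% and 28.4% of the same genes. Shares by gene are another measure than the shares of promoters before them. These letters are a description and say nothing of which factor was bound.

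Between SM and SS 1770 of 12956 probes (13.7%) passed at an adjusted p under 0.05 by limma, with 787 higher (6.07%) and 983 lower (7.59%) in SM than in SS. With SS as the only group treated with saline alone, effects of METH and properties of the 4 SS arrays cannot be told apart here. Among these calls 44.5% were higher, a share that was 54.8% with arrays scaled to 1 median and 83.7% with the authors' log2 values, under which the median of all probes lay 0.25 above 0. A stricter rule on size, over 1.8-fold and p under 0.01 before adjustment, was met by 1.15% of probes, 76 of them higher (0.587%) and 73 lower (0.563%). Every SM array lay above every SS array for 436 probes (3.37%) and below for 613 (4.73%). Most changes were small, with a median absolute log2 difference of 0.444 among calls and 81 calls past 1. Without SM sample 11 the counts became 1141 higher and 1268 lower, without SS sample 20 they became 531 and 685, and without SM sample 11 and SS sample 1 together 1488 and 1513. With 1 probe for each named gene, 574 of 8894 were higher (6.45%) and 764 lower (8.59%), and gene lists below are read against these shares and an all-gene median of -0.00234. Relative to the median of all probes, no list median changed sign with another background correction or scaling or with the authors' log2 values.

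**Figure D1:**
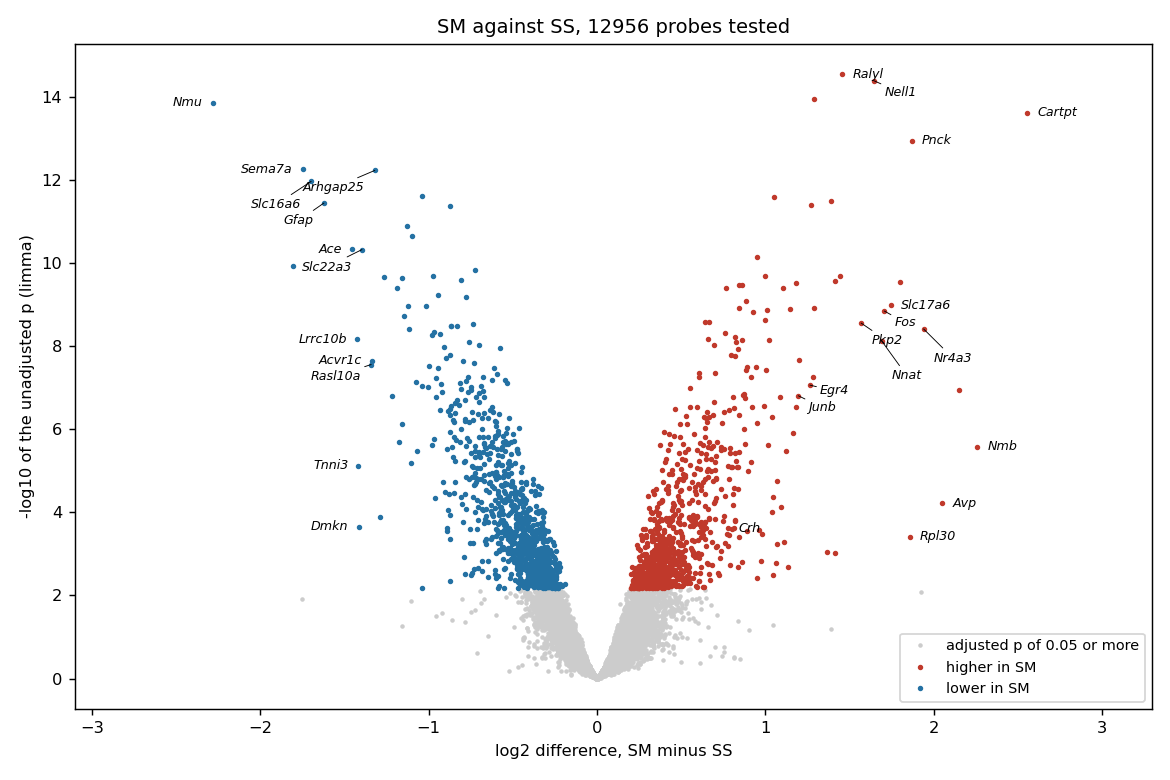
Log2 difference of SM minus SS (x axis) against -log10 of limma's unadjusted p (y axis) for the 12956 probes tested, with red points for the 787 higher and blue points for the 983 lower in SM at an adjusted p under 0.05. Cartpt at 2.56 and Nmu at -2.28 are the labelled genes farthest to each side.

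Of the transcription factors known as immediate early genes, 18 were tested, and 6 rose, 2 fell and 10 did not pass, with a median log2 difference of 0.26. Nr4a3, an orphan nuclear receptor, had a lowest, median and highest level of 8.31, 8.73 and 9.05 in SM, against 7.50, 6.98, 6.22 and 6.38 in SS samples 1, 8, 15 and 20. The groups did not overlap, and the SS arrays spread more widely, with samples 1 and 8 above samples 15 and 20. Nr4a3 rose by 1.94 (SE 0.22, limma's adjusted p = 8.56e-07). Fos, which pairs with Jun proteins to form AP-1, stood at 7.42, 7.72 and 8.34 in SM (lowest, median and highest), against 5.77, 6.06, 6.03 and 6.44 in SS. The gap between the groups was wider than the whole SS range, and Fos rose by 1.71 (SE 0.19, limma's adjusted p = 3.99e-07), which is 3.27-fold.

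Egr4, a zinc-finger factor whose promoter is printed above, stood at 8.50, 8.72 and 8.95 in SM, against 7.76, 7.55, 7.00 and 7.52 in SS, where sample 15 was the lowest. Junb, another AP-1 subunit, stood at 9.39, 9.74 and 9.95 in SM, against 8.59, 8.50, 8.28 and 8.69 in SS. Neither gene overlapped between the groups. Egr4 went up by 1.27 (SE 0.17, limma's adjusted p = 1.04e-05) and Junb by 1.20 (SE 0.17, limma's adjusted p = 1.65e-05). Egr2, a relative of Egr4, rose by 1.07 (SE 0.20, limma's adjusted p = 6.01e-04), at 9.25, 9.53 and 9.92 in SM, against 8.61, 8.50, 8.30 and 8.61 in SS. Klf4 rose by 0.69 (limma's adjusted p = 0.00154), with SS sample 1, at 6.97, just under the lowest SM array, at 7.00.

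Early factors did not all move one way. Ier2 fell by 0.55 (limma's adjusted p = 0.00403), with every SM array, at 5.49 to 5.98, below every SS array, at 6.00 to 6.66. Klf10 fell by 0.56 (limma's adjusted p = 0.00999), a call that was lost without SS sample 8 (fell by 0.39, limma's adjusted p = 0.0737). Npas4, which neurons induce on calcium entry, stood at 5.08, 5.56 and 5.83 in SM, against 4.57, 4.76, 4.65 and 5.93 in SS, and its difference of 0.53 (limma's adjusted p = 0.0836) did not pass. SS sample 20 stood alone above the other SS arrays, and without it the difference was 0.85 (limma's adjusted p = 0.00089). Without SM sample 11 it was 0.62 (limma's adjusted p = 0.0348).

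**Figure D2:**
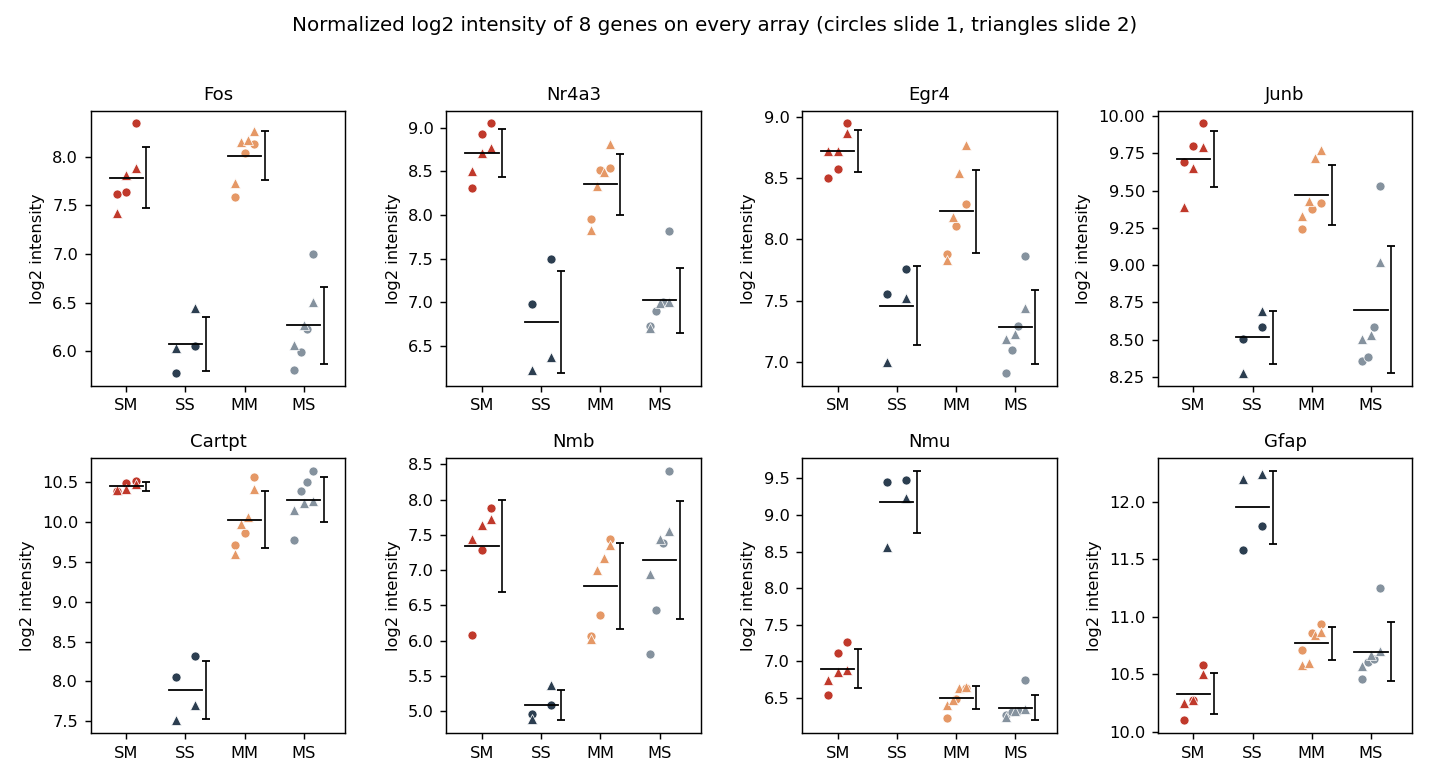
Normalized log2 intensity (y axis) of 8 genes on every array, in SM, SS, MM and MS, with circles for slide 1 and triangles for slide 2. Black lines are group means and bars are 1 SD. Fos, Nr4a3, Egr4 and Junb averaged higher in SM and MM than in SS and MS, while for Cartpt, Nmb, Nmu and Gfap the SS arrays stood apart from the other 3 groups.

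Genes that such factors and ERK signalling switch on, and inhibitors that feed back on them, made up a list of 25 tested genes, of which 4 rose and 5 fell, with a median of -0.10. Rasd1, a small G protein induced by glucocorticoids, stood at 8.08, 8.49 and 9.05 in SM, against 7.58, 8.10, 7.42 and 7.84 in SS, and rose by 0.79 (SE 0.14, limma's adjusted p = 1.74e-04). One SM array, sample 5 at 8.08, lay under the highest SS array at 8.10. Dusp5, a phosphatase of nuclear ERK, rose by 0.62 (limma's adjusted p = 0.00525) and did not overlap between groups. Arc, an effector of synaptic plasticity, rose by 0.72 (SE 0.22, limma's adjusted p = 0.0297), at 8.08, 8.41 and 8.84 in SM, against 7.63, 7.83, 7.41 and 7.96 in SS. Although no SM array fell below an SS array, the call of Arc was lost without SS sample 1 or 15 or SM sample 5, 17 or 22 (differences of 0.62 to 0.70, limma's adjusted p = 0.0545 to 0.106).

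The decreases in that list were of similar size. Vgf, the precursor of secreted peptides in neurons, stood at 6.78, 6.91 and 7.33 in SM, against 7.82, 7.81, 7.59 and 8.05 in SS, and fell by 0.83 (SE 0.12, limma's adjusted p = 1.92e-05). Rgs4, which shortens signals through G proteins of the Gi and Gq kind, stood at 10.31, 10.47 and 10.57 in SM, against 11.24, 10.93, 11.46 and 11.31 in SS, and fell by 0.76 (SE 0.09, limma's adjusted p = 1.47e-06). Zfp36, which speeds the decay of mRNAs, fell by 0.54 (SE 0.09, limma's adjusted p = 8.31e-05). All 3 were lower on every SM array than on every SS array. Dusp1, another ERK pathway phosphatase, had a difference of 0.29 (limma's adjusted p = 0.267) that did not pass, and without SS sample 8 it was 0.49 (limma's adjusted p = 0.0278).

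Because METH also raises corticosterone in rats, 19 glucocorticoid receptors and responsive genes were examined, of which 3 rose and 3 fell, with a median of 0.0457. Bcl6, a transcriptional repressor, stood at 8.38, 8.58 and 8.67 in SM, against 8.15, 8.03, 7.55 and 7.90 in SS, and rose by 0.64 (SE 0.12, limma's adjusted p = 5.55e-04) without overlap. Cebpb, a factor of the acute-phase response, rose by 0.48 (limma's adjusted p = 0.012), a call that was lost without SS sample 15 (0.40, limma's adjusted p = 0.0635). On the other side, Klf9, a classic target of the glucocorticoid receptor, stood at 11.76, 11.91 and 12.01 in SM, against 12.26, 12.48, 12.37 and 12.15 in SS, and fell by 0.41 (SE 0.09, limma's adjusted p = 0.00285). Lcn2, a secreted lipocalin, fell by 0.98 (SE 0.16, limma's adjusted p = 1.30e-04), with SS sample 1 at 6.72 above the other SS arrays at 5.59 to 5.91. Sgk1, a kinase that glucocorticoids induce strongly, stood at 10.79, 10.96 and 11.05 in SM, against 11.27, 12.15, 10.79 and 10.81 in SS. SS samples 1 and 8 of Sgk1 lay above all SM arrays and SS samples 15 and 20 at the low end of the SM range, and its difference of -0.30 (limma's adjusted p = 0.305) did not pass.

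Marker genes of cell types and of neighbouring regions moved with the comparison and bear on the groups that follow. Their lists were chosen with earlier results of these data known, so the counts are a description. The marker genes of medium spiny neurons were present on all arrays, and of 25 tested 19 fell and 1 rose, with a median of -0.45. Their mean level was 9.94 to 10.16 in SM, against 10.47 to 10.60 in SS, with no overlap. With the authors' log2 values 6 fell and none rose. Of 20 tested markers of the hypothalamus and preoptic area 11 rose and none fell, with a median of 0.49 and a mean level of 6.89 to 7.14 in SM, against 6.28 to 6.60 in SS, again with no overlap. Cartpt, Avp, Crh, Hap1, Nnat and Dlk1, named below for their increases, are on this list. On every SM array 9 of the 20 lay above all SS arrays and 1 lay below, against 3.37% and 4.73% of all probes. Of 18 oligodendrocyte markers 11 fell and 1 rose, with a median of -0.42 and a mean level of 9.14 to 9.42 in SM, against 9.64 to 9.76 in SS, although with the authors' log2 values 1 fell. In bulk tissue fewer cells of a type and less RNA per cell cannot be told apart.

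The other marker lists gave the following counts. Of 10 markers of septum, bed nucleus and cholinergic basal forebrain 3 rose, of 12 thalamic markers 3 rose and 2 fell, and of 16 interneuron markers 6 rose and 1 fell. Of 11 endothelial and pericyte markers 4 fell, while by limma none of 14 microglial, 5 blood or 3 midbrain dopamine markers passed. By limma 3, 1 and 0 of these had an unadjusted p under 0.05, against 25.9% of all probes. Of 8 choroid plexus and ependymal markers 1 rose. Of 12 cortical markers 1 fell, and of 13 astrocyte markers 2 rose and 1 fell. By name, Rxrg, a retinoid receptor of medium spiny neurons, stood at 10.50, 10.71 and 10.79 in SM, against 11.56, 11.39, 11.52 and 11.67 in SS, and fell by 0.87 (limma's adjusted p = 7.59e-07). Cnr1, the CB1 cannabinoid receptor, fell by 1.12 (limma's adjusted p = 3.45e-07) and Rasd2, a striatal small G protein, fell by 0.96 (limma's adjusted p = 1.71e-05). Gad1, which makes GABA and is not limited to these neurons, was the member that rose, by 0.26 (limma's adjusted p = 0.011).

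Among myelin genes, Ugt8, which makes galactolipids, fell by 0.73 and Cldn11, a tight-junction protein of myelin, fell by 0.75 (limma's adjusted p = 1.37e-04 and 1.75e-04). Cldn11 stood at 8.66, 9.15 and 9.31 in SM, against 9.91, 9.50, 9.82 and 10.05 in SS. Hap1, a huntingtin-associated protein abundant in the hypothalamus, stood at 9.64, 9.77 and 9.95 in SM, against 8.32, 8.37, 8.32 and 8.61 in SS, and rose by 1.39 (SE 0.11, limma's adjusted p = 3.48e-09). Dlk1, an imprinted gene that 6 of 6 SM and 1 of 4 SS arrays detected, rose by 1.20 (limma's adjusted p = 3.55e-06). None of these 4 genes overlapped between the groups. The part of tissue composition in the results was not tested.

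**Figure D3:**
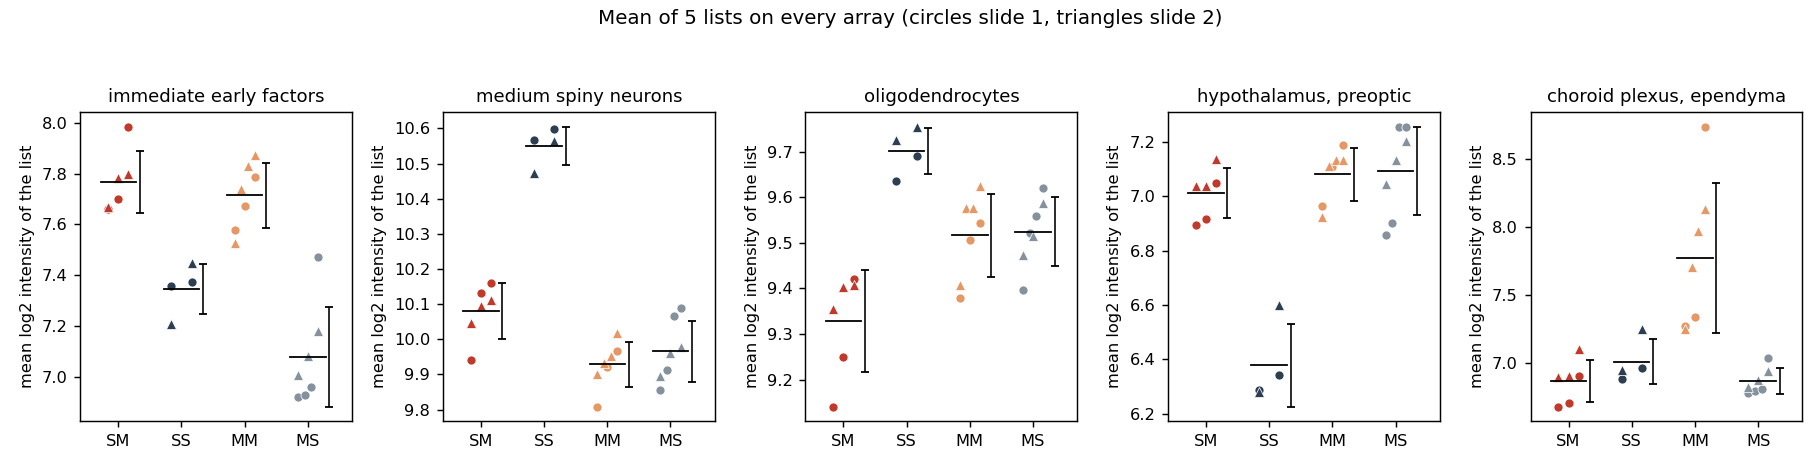
Mean log2 intensity of the tested members of 5 lists (y axis) on every array, in SM, SS, MM and MS, with circles for slide 1, triangles for slide 2, lines for group means and bars for 1 SD. Early factors were higher in SM and MM than in SS and MS, and the SS arrays stood apart for medium spiny neurons and hypothalamus. For oligodendrocytes every SS array also lay above all arrays of SM, MM and MS. The median was 9.379 in SM and 9.708 in SS, with MM at 9.545 and MS at 9.523 between them. The choroid plexus list reached 8.74 on an MM array.

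Among named genes, neuropeptides held the largest changes in both directions. Cartpt, the precursor of CART, stood at 10.39, 10.45 and 10.52 in SM, against 8.32, 8.05, 7.70 and 7.51 in SS. The SM arrays lay closely together and far above the highest SS array, and the SS arrays of slide 1, samples 1 and 8, were the higher ones. Cartpt rose by 2.56 (SE 0.17, limma's adjusted p = 6.31e-11), the largest increase, and a two-sided exact permutation test gave p = 0.00476, the smallest that 6 against 4 arrays allow. The study names Cartpt, like Avp and Crh, for an increase on arrays of this series. The permutation tests of these genes are therefore not independent of that choice. Every SM array lay above every SS array for 3.37% of all probes. Avp, the precursor of vasopressin, stood at 5.96, 7.38 and 8.54 in SM, against 4.54, 4.61, 5.03 and 6.41 in SS, and was detected on 6 of 6 SM and 2 of 4 SS arrays. The groups overlapped, since SS sample 20 lay above SM samples 2 and 11. Avp rose by 2.05 (SE 0.43, limma's adjusted p = 0.00158, exact permutation p = 0.019).

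Crh, the precursor of corticotropin-releasing hormone, stood at 4.97, 5.80 and 6.01 in SM, against 4.63, 4.81, 4.93 and 5.30 in SS, and was detected on 5 of 6 SM and 2 of 4 SS arrays. SM sample 11 lay among the SS arrays. Crh rose by 0.78 (SE 0.18, limma's adjusted p = 0.00455, exact permutation p = 0.019). On slide 1 alone neither passed, with differences of 2.33 for Avp (limma's adjusted p = 0.136) and 0.75 for Crh (limma's adjusted p = 0.293). Of 5 tested genes of the CRH, vasopressin and oxytocin system these 2 rose and none fell. Cartpt, Avp and Crh were also on the list of hypothalamic markers given above, so that they are counted in both.

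Of the 27 other neuropeptide precursors tested, Cartpt among them, 9 rose and 3 fell, with a median of 0.0925. Nmb, the precursor of neuromedin B, stood at 6.08, 7.54 and 7.88 in SM, against 5.09, 4.96, 4.89 and 5.38 in SS, and rose by 2.26 (SE 0.38, limma's adjusted p = 1.40e-04). SM sample 11 was the lowest SM array of Nmb by more than 1 but still lay above every SS array, 2 of which detected it. Nts, the precursor of neurotensin, rose by 0.78 (limma's adjusted p = 3.13e-04), at 10.08, 10.38 and 10.54 in SM, against 9.69, 9.85, 9.20 and 9.46 in SS. Tac3, the precursor of neurokinin B, rose by 0.62 (limma's adjusted p = 0.0044), Pnoc, that of nociceptin, by 0.67 (limma's adjusted p = 4.01e-04), and Gnrh1, that of gonadotropin-releasing hormone, by 1.04 (limma's adjusted p = 0.00229), all without overlap. Sst, the precursor of somatostatin, rose by 0.56 (limma's adjusted p = 0.00136), with SM sample 11 at 10.28 inside the SS range of 9.86 to 10.37. Pmch, the precursor of melanin-concentrating hormone, was not well above background on any SS array and was at least 1.28-fold higher in SM, where 5 of 6 arrays detected it (limma's adjusted p = 0.0115).

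The decreases of peptides were led by Nmu, the precursor of neuromedin U, at 6.54, 6.87 and 7.27 in SM, against 9.45, 9.48, 8.57 and 9.23 in SS. The gap between the highest SM and the lowest SS array was over 1, and Nmu fell by 2.28 (SE 0.15, limma's adjusted p = 4.53e-11), the largest decrease among named genes. Tac1 and Penk, the substance P and enkephalin precursors of D1 and D2 medium spiny neurons, fell less. Tac1 stood at 12.05, 12.13 and 12.32 in SM, against 13.03, 12.73, 12.38 and 12.55 in SS, and fell by 0.51 (SE 0.09, limma's adjusted p = 3.10e-04). Penk stood at 12.70, 13.02 and 13.11 in SM, against 13.30, 13.45, 13.40 and 13.46 in SS, and fell by 0.42 (SE 0.09, limma's adjusted p = 0.00299). Both are members of the medium spiny neuron list, of which 19 of 25 fell.

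Of 18 neuropeptide receptors tested 5 rose and 1 fell, with a median of 0.19. Mc4r, a melanocortin receptor, stood at 7.07, 7.57 and 7.74 in SM, against 6.67, 6.67, 6.50 and 6.53 in SS, and rose by 0.94 (SE 0.12, limma's adjusted p = 4.81e-06). Sstr1, a somatostatin receptor, rose by 1.01 (SE 0.17, limma's adjusted p = 1.31e-04), Oprl1, the nociceptin receptor, by 0.82 (SE 0.10, limma's adjusted p = 2.82e-06), and Cckbr, a cholecystokinin receptor, by 0.50 (SE 0.10, limma's adjusted p = 0.00143). In all 4 every SM array lay above every SS array. Nmbr, the receptor of neuromedin B, was not well above background on any SS array and was at least 1.33-fold higher in SM, with 5 of 6 arrays detecting it (limma's adjusted p = 0.00286). Avpr1a, a vasopressin receptor, was detected on 2 of 6 SM and 0 of 4 SS arrays, stood at 4.58, 4.81 and 5.07 in SM, against 4.61, 4.54, 4.57 and 4.54 in SS, and did not pass (limma's adjusted p = 0.0963). Without SM sample 11 its difference was 0.31 (limma's adjusted p = 0.0336). Avpr1b was not tested, as too few arrays detected it.

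Of 11 genes for the synthesis, transport, breakdown and reception of dopamine 3 fell and none rose, with a median of -0.12. Slc22a3, a carrier that takes up monoamines outside the synapse, stood at 6.23, 6.54 and 6.80 in SM, against 7.95, 7.73, 8.20 and 7.67 in SS, and fell by 1.40 (SE 0.13, limma's adjusted p = 3.27e-08). Drd2 stood at 8.10, 8.40 and 8.69 in SM, against 9.00, 9.00, 8.94 and 8.93 in SS, and fell by 0.60 (SE 0.09, limma's adjusted p = 5.86e-05). Drd1 stood at 9.96, 10.04 and 10.28 in SM, against 10.53, 10.53, 10.39 and 10.23 in SS, where 1 SM array, sample 11, reached the SS range, and it fell by 0.34 (SE 0.08, limma's adjusted p = 0.00471). The call of Drd1 was lost with median scaling, the authors' log2 values, either slide alone or only the 10 SM and SS arrays. Th, which makes dopamine in midbrain neurons, was detected on 3 of 6 SM and 1 of 4 SS arrays and had a difference of 0.08 (limma's adjusted p = 0.677).

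The cAMP pathway downstream of these receptors moved in both directions, with 7 of 38 tested genes up and 11 down. Several of the genes that fell are known from medium spiny neurons. Ppp1r1b (DARPP-32), which turns dopamine signals into inhibition of a phosphatase, stood at 12.73, 13.03 and 13.24 in SM, against 13.46, 13.56, 13.52 and 13.78 in SS, and fell by 0.56 (SE 0.09, limma's adjusted p = 1.18e-04). Pde10a, the main phosphodiesterase of these neurons, fell by 0.78 (limma's adjusted p = 4.81e-05), Adcy5, their main adenylyl cyclase, fell by 0.72 (limma's adjusted p = 5.26e-04), and Ppp1r1a, a phosphatase inhibitor akin to DARPP-32, fell by 0.81 (limma's adjusted p = 9.38e-06). In contrast Adcy8, a cyclase that calcium activates, stood at 6.61, 6.81 and 6.96 in SM, against 5.68, 6.28, 6.31 and 6.37 in SS, and rose by 0.63 (SE 0.11, limma's adjusted p = 1.31e-04). None of these 5 genes overlapped between the groups. Creb1 had a difference of -0.15 (limma's adjusted p = 0.524) that did not pass. Ppp1r1b, Pde10a and Adcy5 are themselves among the 25 medium spiny neuron markers, of which 19 fell, so that they are counted in both. The mean level of these markers was 9.94 to 10.16 in SM, against 10.47 to 10.60 in SS, and their part in the result was not tested.

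Receptors of fast transmission were counted by class, and no difference between classes was tested. Of 10 GABA and glycine receptor subunits 6 rose and 1 fell, with a median of 0.52, and of 16 glutamate receptor subunits 2 rose and 4 fell, with a median of -0.0416. Glra2, a glycine receptor subunit, stood at 9.00, 9.08 and 9.18 in SM, against 8.36, 8.05, 8.04 and 7.88 in SS, and rose by 1.00 (SE 0.10, limma's adjusted p = 1.06e-07). Gabrb1 rose by 0.53 (SE 0.09, limma's adjusted p = 1.72e-04), also without overlap, while Gabrd, a subunit of extrasynaptic GABA receptors, fell by 0.64 (SE 0.12, limma's adjusted p = 4.54e-04). SM sample 11 stood apart here, with Gabrd at 9.82 inside the SS range of 9.75 to 9.87, and its mean over the 10 subunits was 7.90, where the other SM arrays reached 8.25 to 8.44 and the SS arrays 7.75 to 8.08. Grin2c, an NMDA receptor subunit, stood at 7.48, 7.56 and 8.21 in SM, against 8.46, 8.77, 8.66 and 9.19 in SS, and fell by 1.11 (SE 0.13, limma's adjusted p = 8.56e-07). Grik1, a kainate receptor subunit, rose by 0.88 (SE 0.12, limma's adjusted p = 1.77e-05) without overlap.

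Several genes with the largest changes lay outside these signalling groups. Pnck, a kinase that calcium and calmodulin activate, stood at 10.38, 10.77 and 10.93 in SM, against 8.19, 8.99, 9.01 and 9.10 in SS, and rose by 1.87 (SE 0.13, limma's adjusted p = 2.49e-10). Nell1, a secreted protein, stood at 9.23, 9.37 and 9.46 in SM, against 7.39, 7.70, 7.83 and 7.89 in SS, and rose by 1.65 (SE 0.10, limma's adjusted p = 2.73e-11). Neither overlapped, and the SM arrays of Nell1 lay closely together. Slc17a6, the vesicular glutamate transporter of thalamic and hypothalamic neurons, rose by 1.74 (limma's adjusted p = 3.38e-07), at 8.12, 8.35 and 8.88 in SM, against 5.86, 6.29, 7.44 and 6.95 in SS. Both probes of Nnat, an imprinted gene of neurons, rose, by 1.69 and 1.29 (limma's adjusted p = 1.41e-06 and 3.58e-07). Pkp2, a desmosomal protein, rose by 1.57 (limma's adjusted p = 6.89e-07) and Ralyl, an RNA-binding protein, by 1.46 (limma's adjusted p = 2.73e-11).

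Rpl30, a ribosomal protein with many near-identical copies in the genome, rose by 1.86 (SE 0.46, limma's adjusted p = 0.00652) with a split among the SM arrays. SM samples 2 and 11 stood at 9.34 and 9.76, near the SS arrays at 8.58 to 9.45, while the other 4 SM arrays stood at 11.40 to 12.22. On slide 1 alone its difference was 0.87 (limma's adjusted p = 0.742).

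Outside the peptides the largest decreases of named genes were those of Sema7a, Slc16a6 and Gfap. Sema7a, a membrane-anchored guidance molecule, stood at 7.61, 7.93 and 8.02 in SM, against 9.18, 9.56, 9.80 and 9.94 in SS, and fell by 1.75 (SE 0.13, limma's adjusted p = 9.69e-10). Slc16a6, a carrier of the monocarboxylate family, stood at 6.58, 6.66 and 6.89 in SM, against 8.50, 8.21, 8.45 and 8.38 in SS, and fell by 1.70 (SE 0.13, limma's adjusted p = 1.59e-09). Gfap, the intermediate filament of astrocytes, stood at 10.10, 10.28 and 10.58 in SM, against 11.58, 11.79, 12.20 and 12.24 in SS, and fell by 1.62 (SE 0.13, limma's adjusted p = 3.62e-09). The SS arrays of Gfap on slide 2, at 12.20 and 12.24, stood above those on slide 1, and all 4 stood above every SM array. None of the other 12 astrocyte markers tested passed as lower, while Agt, the precursor of angiotensin, and Slc1a3, a glutamate transporter, rose by 0.87 and 0.36 (limma's adjusted p = 1.55e-05 and 0.0119). Of all 13 astrocyte markers 2, Gfap among them, were lower on every SM array than on every SS array, against 4.73% of all probes. By limma 5 of the 13 had an unadjusted p under 0.05, against 25.9% of all probes. The call of Slc1a3 was lost without SS sample 20 (0.31, limma's adjusted p = 0.0618).

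Ace, the angiotensin-converting enzyme, which is dense on striatal output neurons, stood at 5.90, 6.16 and 6.27 in SM, against 7.38, 7.54, 7.38 and 8.02 in SS, and fell by 1.46 (SE 0.14, limma's adjusted p = 3.27e-08). Lrrc10b, a leucine-rich repeat protein, fell by 1.42 (limma's adjusted p = 1.33e-06), Rasl10a, a small G protein, fell by 1.34 (limma's adjusted p = 4.26e-06) and Arhgap25 fell by 1.32 (limma's adjusted p = 9.69e-10). Tnni3, a troponin known from heart muscle, and Dmkn, a secreted protein known from skin, each fell by 1.42 (limma's adjusted p = 3.13e-04 and 0.00436). SM arrays lay below SS arrays without exception in all of these, though the highest SM array of Dmkn, sample 11 at 8.12, nearly reached SS sample 15 at 8.17.

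Transcripts of a ligand, a receptor and inhibitors of the TGF-beta family were lower in SM. Of 21 tested genes of insulin, growth factor and TGF-beta signalling 6 fell and 1 rose, with a median of -0.14. Tgfb1, the ligand, stood at 5.31, 5.50 and 5.89 in SM, against 6.25, 6.38, 6.23 and 6.78 in SS, and fell by 0.85 (SE 0.14, limma's adjusted p = 9.58e-05). Acvr1c, an activin and Nodal receptor, stood at 7.86, 8.12 and 8.84 in SM, against 9.86, 9.62, 9.20 and 9.46 in SS, and fell by 1.34 (SE 0.17, limma's adjusted p = 3.57e-06). Fst, which binds and blocks activins, fell by 1.14 (SE 0.13, limma's adjusted p = 4.94e-07), and Pmepa1, a target and inhibitor of TGF-beta signalling, fell by 1.16 (SE 0.12, limma's adjusted p = 1.14e-07). Every SM array lay below every SS array in all 4 genes. Igfbp6, a binding protein of insulin-like growth factors, was the member that rose, by 0.58 (limma's adjusted p = 0.00347).

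Of 26 genes of the unfolded protein and integrated stress response 6 fell and 1 rose, where 8.59% of all named genes fell. Both counts became 0 with the authors' log2 values. Of 15 heat shock proteins 2 fell and none rose, and of 28 antioxidant and metallothionein genes 3 rose and none fell. The median of these 28 was -0.00109. On every SM array 0 of them lay above all SS arrays and 2 lay below, against 3.37% and 4.73% of all probes. Hsp90b1, a chaperone of the endoplasmic reticulum, stood at 11.26, 11.40 and 11.72 in SM, against 12.03, 11.88, 11.86 and 11.85 in SS, and fell by 0.48 (SE 0.09, limma's adjusted p = 2.73e-04). Cryab, a small heat shock protein rich in oligodendrocytes, stood at 9.37, 10.04 and 10.39 in SM, against 10.75, 11.07, 11.34 and 11.13 in SS, and fell by 1.08 (SE 0.14, limma's adjusted p = 8.83e-06). Gpx3, a glutathione peroxidase, rose by 0.68 (SE 0.17, limma's adjusted p = 0.00814), with overlap between the groups. Oligodendrocyte markers, which Cryab accompanies, averaged 9.14 to 9.42 in SM, against 9.64 to 9.76 in SS, and their part in the result was not tested.

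Of 18 tested genes of DNA methylation, hydroxymethylation and histone deacetylation 3 fell and none rose by limma, where 8.59% of all named genes fell and 6.45% rose. Their median was -0.0855, and by limma 5 of 18 had an unadjusted p under 0.05, against 25.9% of all probes. Tet1, Tet2 and Tet3, which oxidize methylated cytosine, and the CRH receptor genes Crhr1 and Crhr2 were not analysed here, since no probe carried their names. Dnmt3a stood at 7.89, 8.10 and 9.29 in SM, against 8.26, 8.10, 8.00 and 7.76 in SS, with SM sample 2 highest, and had a difference of 0.28 (limma's adjusted p = 0.507). Dnmt1 and Dnmt3b had differences of 0.06 and 0.28 (limma's adjusted p = 0.751 and 0.0787). For Dnmt3b the difference without SM sample 5 was 0.345 (limma's adjusted p = 0.0295). Hdac2, a histone deacetylase, fell by 0.31 (SE 0.08, limma's adjusted p = 0.00977), at 9.13, 9.27 and 9.47 in SM, against 9.78, 9.53, 9.60 and 9.46 in SS. The call of Hdac2 was lost with median scaling, the authors' log2 values, either slide alone or only the 10 SM and SS arrays. Of 16 cholesterol synthesis and uptake genes 1 fell and none rose, and of 13 clock genes 1 rose and 2 fell.

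**Figure D4:**
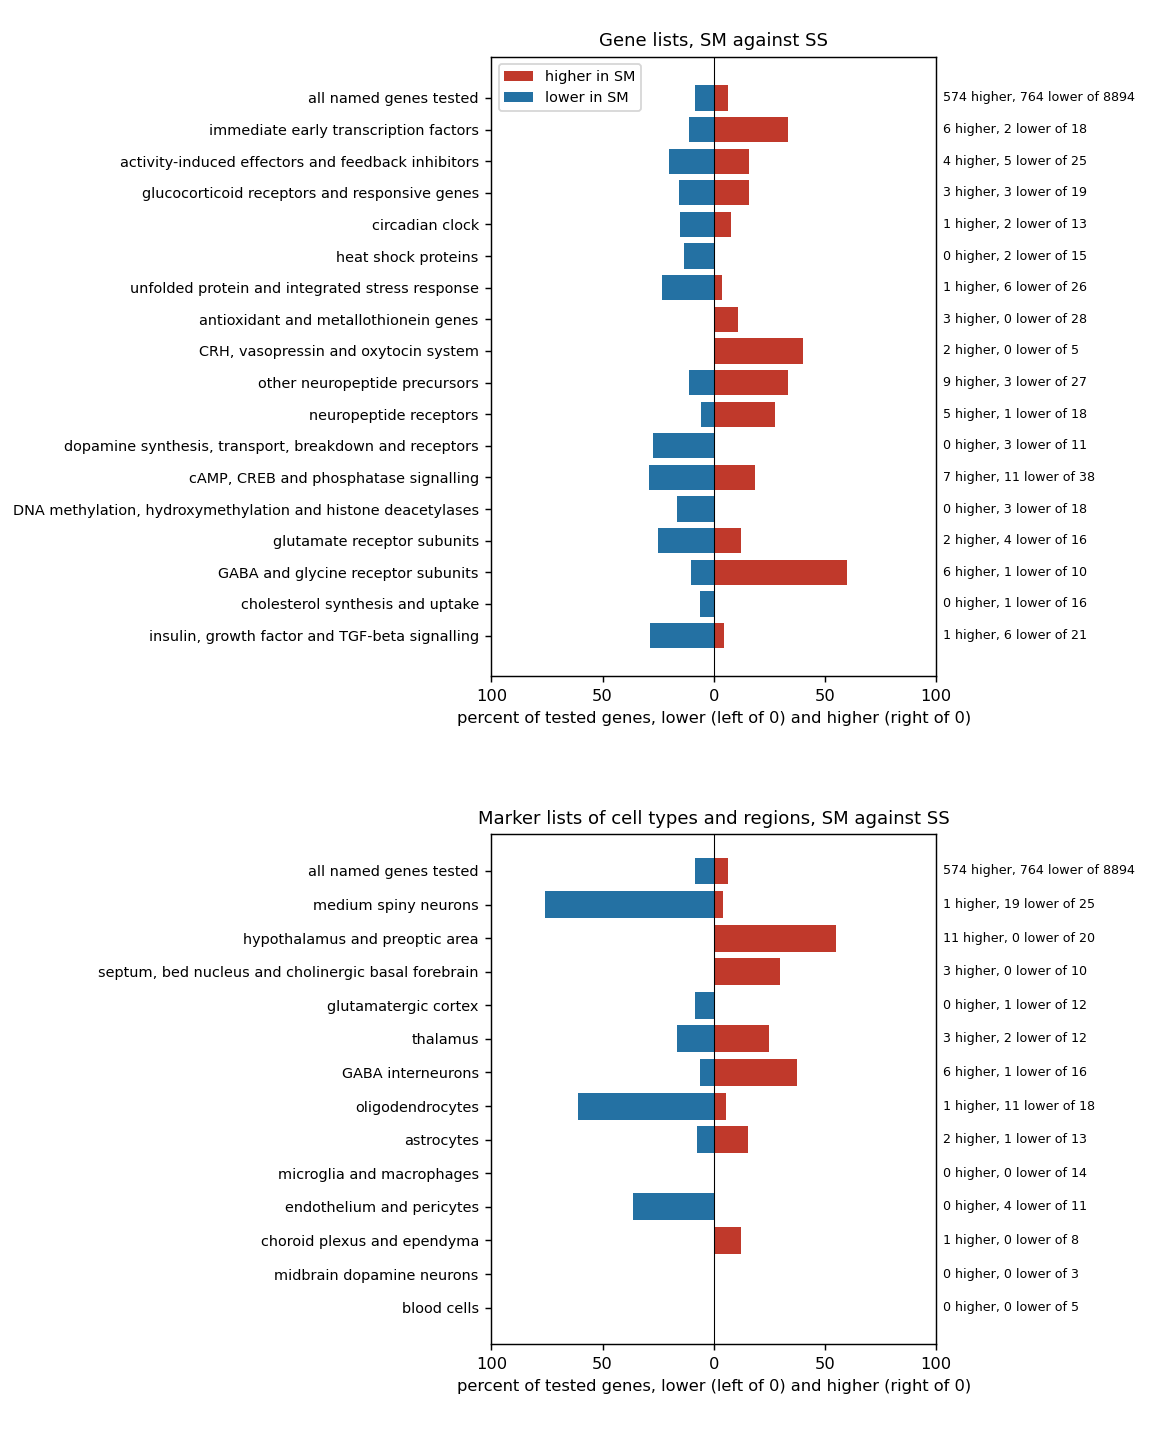
Percent of the tested genes of each list (y axis) that were lower in SM (blue, left of 0) or higher in SM (red, right of 0) than in SS at an adjusted p under 0.05, with the counts at the right. Medium spiny neuron and oligodendrocyte markers reach far to the left and GABA receptor subunits and hypothalamic markers far to the right of the bars for all 8894 named genes.

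The same dose of METH was also given to METH-pretreated rats, and MM against MS shares no array with SM against SS, although 1 estimate of the spread serves both. In MM against MS 1.13% of probes passed, of which 85 were higher (0.656%) and 61 lower (0.471%). Calls in the same direction in both comparisons numbered 30, of which 19 were higher and 11 lower, and these are 1.69% of the SM against SS calls and 20.5% of the MM against MS calls. In opposite directions 12 probes passed. The difference between the 2 comparisons passed for 455 probes in which SM minus SS was the larger (3.51%) and for 539 in which it was the smaller (4.16%), and 815 of the 1770 SM against SS calls (46%) were among them. These probes were chosen on arrays that enter the difference too.

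Early genes led the calls that both challenges shared. Fos averaged 7.79 ± 0.32 in SM and 6.08 ± 0.28 in SS, and 8.01 ± 0.25 in MM and 6.27 ± 0.39 in MS (SD, n = 6, 4, 7 and 7). It rose by 1.74 in MM against MS (SE 0.16, limma's adjusted p = 2.42e-07), and the difference between the comparisons was -0.03 (SE 0.24, limma's adjusted p = 0.959). Nr4a3 averaged 8.71 in SM and 6.77 in SS, and 8.35 in MM and 7.02 in MS, with a difference of 0.61 (SE 0.29, limma's adjusted p = 0.224). Egr4 and Junb likewise rose in MM, by 0.94 and 0.77 (limma's adjusted p = 7.67e-04 and 0.00418), as did Arc by 1.03 and Rasd1 by 0.50 (limma's adjusted p = 0.00399 and 0.021). MM and MS overlapped for Egr4 and Junb. MS sample 7 stood at 7.864 for Egr4 and 9.533 for Junb, above the lowest MM arrays at 7.834 and 9.242. For none of these 6 genes did the difference between the comparisons pass, although for Nr4a3 it was 0.85 without SS sample 1 (limma's adjusted p = 0.046). Camk1g, a calcium and calmodulin-dependent kinase, rose in both but by more in SM against SS, with a difference of 0.51 (limma's adjusted p = 0.00969). Tlr2 and Plek, known from microglia and blood cells, fell in both, and in SM against SS Tlr2 fell by 0.70 and Plek fell by 0.60, although none of the 14 microglial and 5 blood cell markers passed by limma in SM against SS, as given above with their unadjusted counts.

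Of the 18 early factors 10 rose and none fell in MM against MS (median 0.54), where 0.787% of named genes rose. Klf10 was called in opposite directions, as it rose by 0.57 in MM against MS (limma's adjusted p = 0.0141) after falling in SM against SS, and the difference passed (-1.12, limma's adjusted p = 3.49e-04). Crem, a repressor and activator of the CREB family, averaged 7.65 in SM and 7.76 in SS, and 7.94 in MM and 7.21 in MS, and its difference passed (-0.84, limma's adjusted p = 0.00623). The difference of a second, dimmer Crem probe was -0.48 and did not pass (limma's adjusted p = 0.0888). Of the glucocorticoid-responsive genes 8 of 19 rose in MM against MS and none fell. Klf9 rose there by 0.38 (limma's adjusted p = 0.00903), opposite to its fall in SM, and Sgk1 by 0.77 (limma's adjusted p = 0.00787), with differences between comparisons of -0.80 and -1.07 (limma's adjusted p = 9.83e-05 and 0.0044). Sgk1 averaged 10.95 in SM and 11.25 in SS, and 11.20 in MM and 10.44 in MS.

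**Figure D5:**
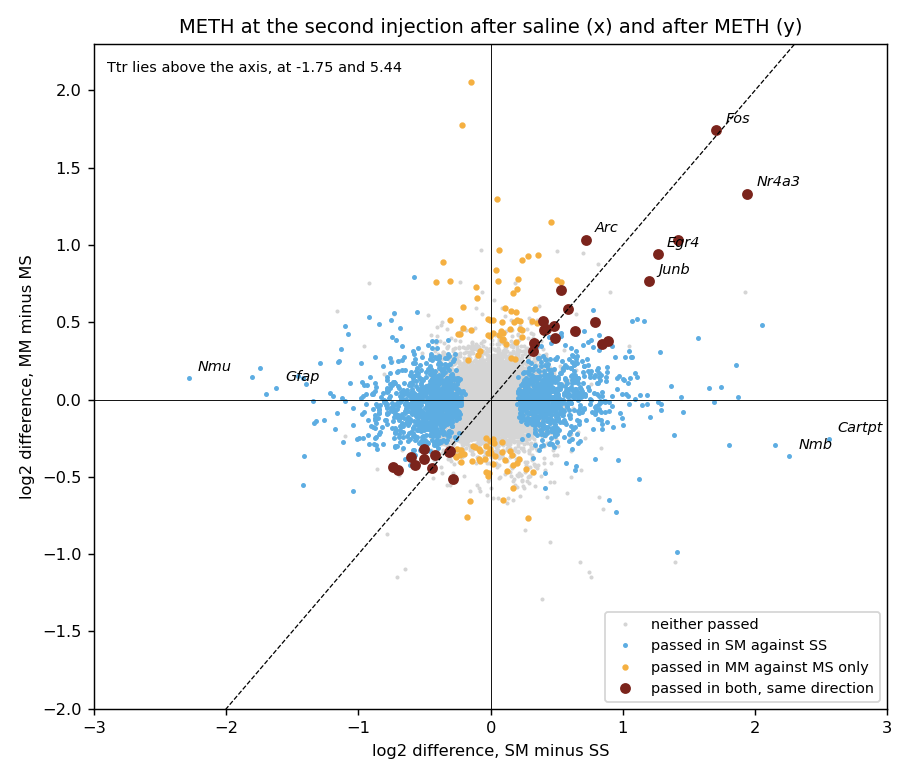
Log2 difference of SM minus SS (x axis) against that of MM minus MS (y axis) for the probes tested, where the dashed line marks equal differences. The 30 dark red points passed in both in the same direction, with Fos near the line, while Cartpt, Nmb, Nmu and Gfap lie near 0 on the y axis.

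Of the 24 named genes with the largest changes in SM against SS, 12 in each direction, the difference between the comparisons passed for 18, that is 8 increases and 10 decreases. Without SM sample 11 it passed also for Avp, Rpl30 and Dmkn (limma's adjusted p = 0.0401, 0.0343 and 0.031). For Cartpt, Nmu and Gfap the SS arrays did not overlap those of the other 3 groups. Cartpt averaged 10.45 ± 0.05 in SM and 7.90 ± 0.36 in SS, and 10.03 ± 0.36 in MM and 10.29 ± 0.28 in MS, and the difference between the comparisons was 2.81 (SE 0.22, limma's adjusted p = 6.36e-09). Nmu averaged 6.90 in SM and 9.18 in SS, and 6.50 in MM and 6.36 in MS, with a difference of -2.42 (SE 0.19, limma's adjusted p = 6.36e-09). Gfap averaged 10.33 in SM and 11.95 in SS, and 10.77 in MM and 10.70 in MS, with a difference of -1.70 (SE 0.17, limma's adjusted p = 4.39e-07). Crh and Avp did not pass this test, with differences of 0.20 and 1.57 (limma's adjusted p = 0.708 and 0.0853). Without SM sample 2 or 11 or SS sample 20 that of Avp was 1.77 to 1.99 (limma's adjusted p = 0.0278 to 0.0401). Crh averaged 5.70 in SM and 4.92 in SS, and 6.40 in MM and 5.82 in MS. The lists of medium spiny neuron and hypothalamic markers showed the same layout. The mean of medium spiny neuron markers was 9.94 to 10.16 in SM and 10.47 to 10.60 in SS. In MM and MS it was 9.81 to 10.02 and 9.86 to 10.09. For hypothalamic markers it was 6.89 to 7.14 in SM and 6.28 to 6.60 in SS, and 6.92 to 7.19 in MM and 6.86 to 7.26 in MS. For oligodendrocyte markers the SS arrays, at 9.637 to 9.756, also lay above all arrays of the other 3 groups. Their mean was 9.14 to 9.421 in SM, 9.379 to 9.625 in MM and 9.396 to 9.621 in MS. Medians were 9.379 in SM, 9.708 in SS, 9.545 in MM and 9.523 in MS, so that SM had the lowest.

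Ttr, the thyroid hormone carrier made by the choroid plexus, had the most negative difference between the comparisons, -7.20 (SE 0.84, limma's adjusted p = 3.05e-06). It ranged over 4.52 to 7.10 in SM and 6.12 to 8.33 in SS, and over 8.65 to 13.06 in MM and 4.63 to 5.04 in MS. In SM against SS its difference of -1.75 (limma's adjusted p = 0.075) did not pass, but it was -2.11 without SM sample 14 (limma's adjusted p = 0.03) and -2.07 without SS sample 1 (limma's adjusted p = 0.0458). Sostdc1, another gene of the choroid plexus, was detected on no SM and no SS array and on all 7 MM arrays, so that no size of its difference between the comparisons is given. The test of that difference (limma's adjusted p = 0.0282) did not pass without SS sample 15 or 20 (limma's adjusted p = 0.0501 and 0.0596).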

How the data were processed

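RNA of rat nucleus accumbens was labelled with biotin and hybridized to Illumina BeadChips, 1 array for each of 24 samples. The authors deposited bead intensities from BeadStudio (version not given in the sources used here), with values down to -21, and a detection score for each, deposited as 1 minus a p-value. They also deposited log2 intensities, which were found to be log2 of the intensity, or of 1 where it was lower (26.1% of values), less the median of each probe over 24 arrays (largest deviation 2.32e-06). The detection scores did not follow the order of the intensities beside them (Spearman's rank correlation -0.00699 to 0.000247), and they were paired again by rank within each array.

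Intensities were corrected for background and quantile normalized with neqc of limma 3.58.1 (R 4.3.3, offset 16). Of 22523 probes, 12956 were tested, those with a detection p under 0.05 on 4 or more arrays, with lmFit and eBayes, with 1 mean for each group over all 24 arrays, two-sided, and Benjamini-Hochberg adjustment over all of them. Differences were SM minus SS, MM minus MS, and the first less the second. The study's own rule, above 1.8-fold at p under 0.01, was applied too. Probes were named from the platform annotation, with symbols updated through RefSeq: 13793 had 1 gene symbol, 8730 none and 0 several, and the brightest of several probes stood for a gene, which gave 8894 named genes tested. Pairs among the 10 SM and SS arrays, within and between the groups, correlated at 0.955 to 0.987 (Spearman). Cartpt, Avp and Crh were also given an exact permutation test. A gene below background on all arrays of a group has its fold as a bound, the mean of the detected group against the lowest signal among probes above background. The fits were tested on simulated data. Figures were drawn with matplotlib 3.10.9.

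The members and the 17 gene and 13 marker lists were chosen with earlier results of these data known. Genes were taken from those the study names, those among the 12 largest increases or decreases, the 4 of smallest p in each list, and the 6 largest differences between comparisons each way, and not all of them are printed. Adcy5, Arc, Camk1g, Crem, Dusp1, Dusp5, Egr2, Gad1, Gnrh1, Ier2, Igfbp6, Klf10, Klf4, Nfil3, Nmbr, Npas4, Penk, Plek, Pmch, Pnoc, Sgk1 and Tlr2 fall outside this rule and were chosen after their values were seen. Alternatives were other background corrections, scalings, filters, fits and sets of arrays.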

Additional observations from a re-analysis of the deposited data

Results flagged for a closer look

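Single samples that stood alone within their group, by a gap to the nearest other sample that was large beside the range of the group, were found for 21 of 280 groups of values tested, where chance gives about 1 in 20. SM sample 11 stood alone most often. In it Gabrd was at 9.825 (other SM arrays 8.916 to 9.208), Grin2c at 8.211 (7.484 to 7.592) and Hsp90b1 at 11.72 (11.26 to 11.41), which are on the side of the SS arrays. Nmb was at 6.083 (7.287 to 7.876), 1 probe of Nnat at 6.848 (7.819 to 8.339) and Sst at 10.28 (10.72 to 10.97), again on the side of the SS arrays. The means of SM sample 11 over GABA and glycine receptor subunits, 7.903 (8.251 to 8.437), and over interneuron markers, 8.227 (8.39 to 8.447), lay the same way. This sample also had the lowest array weight, 0.25.

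Other SM samples stood alone for fewer values. Mc4r in SM sample 14 was at 7.065 (other SM arrays 7.549 to 7.743) and Ttr at 7.098 (4.52 to 5.484). Penk in SM sample 2 was at 12.7 (13 to 13.11), and its mean over glucocorticoid-responsive genes was 8.3 (8.399 to 8.426). The mean of SM sample 22 over dopamine genes was 6.939 (6.873 to 6.895). Among SS samples, sample 1 stood alone for Adcy8 at 5.677 (other SS arrays 6.283 to 6.365), Cnr1 at 7.132 (6.717 to 6.78), Hsp90b1 at 12.03 (11.85 to 11.88), Klf4 at 6.971 (6.381 to 6.467) and Pnck at 8.186 (8.986 to 9.096). Npas4 in SS sample 20 was at 5.934 (4.565 to 4.763), Nr4a2 in SS sample 15 at 7.298 (5.82 to 6.046), and the mean of SS sample 8 over neuropeptide receptors was 5.753 (5.648 to 5.664).

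SM minus SS differed from MM minus MS, by limma's test of the first less the second, for 72 of 108 values tested for named genes, against 7.67% of all probes. Many of these genes were named for large changes in SM against SS or large differences between the comparisons, so a high share follows from how they were chosen. A difference of this kind does not tell a changed response to METH from properties of the 4 SS arrays. The difference was positive for Cartpt at 2.81, Nmb at 2.63, Pnck at 1.85, Nnat (1 probe) at 1.71, Slc17a6 at 1.66, Hap1 at 1.62, Nell1 at 1.57, Ralyl at 1.54 and Calb2 at 1.43. It was also positive for Nnat (the other probe) at 1.36, Dlk1 at 1.31, Pkp2 at 1.17, Grik1 at 1.02, Glra2 at 0.962, Lhx6 at 0.905, Tac3 at 0.811, Agt at 0.752 and Sstr1 at 0.74. The smaller positive differences were those of Oprl1 at 0.677, Mc4r at 0.664, Nts at 0.633, Adcy8 at 0.621, Cckbr at 0.611, Pnoc at 0.595, Gabrb1 at 0.58, Camk1g at 0.509 and Slc1a3 at 0.416. These are log2 differences, and in each of them SM minus SS was the larger.

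The difference was negative for Drd1 at -0.346, Ppp1r1b at -0.492, Mal at -0.497, Drd2 at -0.501, Zfp36 at -0.531, Hsp90b1 at -0.552, Sox10 at -0.559, Tac1 at -0.581 and Ugt8 at -0.613. Next came Gabrd at -0.624, Esam at -0.639, Rxrg at -0.717, Adcy5 at -0.76, Tgfb1 at -0.779, Reln at -0.784, Klf9 at -0.796, Vgf at -0.796 and Grin2c at -0.837. Larger still were Crem at -0.841, Cldn11 at -0.842, Ppp1r1a at -0.857, Rgs4 at -0.862, Ier2 at -0.882, Pde10a at -0.926, Rasd2 at -1.05, Sgk1 at -1.07 and Klf10 at -1.12. Larger still were Cnr1 at -1.13, Nr4a2 at -1.18, Arhgap25 at -1.18, Acvr1c at -1.19, Lcn2 at -1.22, Rasl10a at -1.33, Fst at -1.39, Pmepa1 at -1.4 and Slc22a3 at -1.5. The most negative were Cryab at -1.5, Lrrc10b at -1.56, Ace at -1.61, Gfap at -1.7, Slc16a6 at -1.73, Sema7a at -1.95, Sostdc1 at -2.21 (not well above background on any SM or SS array, so not a measured size), Nmu at -2.42 and Ttr at -7.2. The differences of Nts, Drd1, Sstr1, Slc1a3 and Sostdc1 did not pass once single SM or SS arrays were left out, with limma's adjusted p of up to 0.0948, 0.103, 0.0818, 0.108 and 0.0596. For Nts this held without SM sample 5, 17 or 22 or SS sample 15 or 20, and for Sostdc1 without SS sample 15 or 20. It held for Drd1 without any of the arrays but SM samples 11 and 17 and SS sample 20, for Sstr1 without SM sample 2 or 14 or SS sample 1, 8 or 20, and for Slc1a3 without any but SM samples 11 and 17 and SS sample 1.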

How the results depend on the processing

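Of 25 other settings none turned the direction of a called gene named by the rule. Of the 100 values called by that rule, 32 were called under every setting that tested them, 63 were not called with slide 1 alone (5 SM and SS arrays) and 10 not with slide 2 alone. The 787 probes higher in SM became 441 with the authors' log2 values, 78 with slide 1 alone, 1204 with slide 2 alone, 393 with only the 10 SM and SS arrays and 1488 without SS sample 1 and SM sample 11. The 983 lower probes became 485 with median scaling, 86 with the authors' log2 values, 85 with slide 1 alone, 544 with only the 10 arrays and 1513 without those 2 samples. At 1.8-fold, the 76 higher probes became 233 without background correction, 38 with an offset of 50, 452 with the authors' log2 values, 194 with slide 2 alone and 133 without those 2 samples, and the 73 lower probes became 165, 31, 48 with median scaling and 130 with slide 2 alone. Fewer arrays entered the fits by slide and the fit of 10 arrays, and the cause of the other moves was not tested. On slide 1 alone Avp (2.33, limma's adjusted p = 0.136) and Crh (0.748, limma's adjusted p = 0.293) kept their direction but did not pass.

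Leaving out single SM or SS arrays gave 531 to 1141 higher and 685 to 1268 lower probes (lowest without SS sample 20, highest without SM sample 11), and 68 to 99 higher and 67 to 89 lower at 1.8-fold. It gave 357 to 678 positive and 434 to 725 negative differences between comparisons. In MM against MS, where only the shared estimate of the spread changes, it gave 78 to 133 higher and 51 to 109 lower probes. Slide as a block gave 815 higher and 1016 lower. Counting every probe of a gene, 20 of 27 probes of medium spiny neuron markers fell and 1 rose. No paired analysis was possible because the numbers in the labels run through all groups and no number occurs in 2 groups. In simulated data for SM against SS, 37, 43, 48 and 50 of 50 probes changed by 1.5, 2, 3 and 5-fold were called, with 12 of 16372 unchanged probes called, and the median fold found for 2-fold changes was 1.75. The simulated noise was independent between probes and arrays, without slides or deviant arrays. These 12 calls therefore do not give the error rate of the real arrays.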

Other observations

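Genes of other cell classes moved on these arrays as well. Calb2 (calretinin), a calcium-binding protein of interneurons and of thalamic cells, rose by 1.44 (SE 0.14, limma's adjusted p = 1.06e-07), at 6.38, 6.55 and 6.96 in SM (lowest, median and highest), against 4.81, 5.53, 5.30 and 5.12 in SS samples 1, 8, 15 and 20. Lhx6, a homeobox factor of interneurons from the medial ganglionic eminence, rose by 0.89 (limma's adjusted p = 4.81e-06), while Reln, a secreted guide of neuronal layering, fell by 0.76 (limma's adjusted p = 4.98e-05). SM arrays lay above SS arrays for Calb2 and Lhx6 and below them for Reln without exception. Calb2 is a member of the interneuron and the thalamic list at once, so that the 2 counts are not separate.

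Beyond Ugt8 and Cldn11, Sox10, the lineage factor of oligodendrocytes, stood at 8.31, 8.39 and 8.54 in SM, against 8.64, 9.03, 8.84 and 9.13 in SS, and fell by 0.51 (SE 0.10, limma's adjusted p = 6.08e-04). Mal, a myelin proteolipid, stood at 11.14, 11.27 and 11.66 in SM, against 11.81, 11.94, 11.85 and 12.04 in SS, and fell by 0.57 (SE 0.10, limma's adjusted p = 2.07e-04). Both were lower on every SM array. Esam, an adhesion molecule of endothelium, fell by 0.53 (limma's adjusted p = 2.81e-04).

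Some early factors passed in MM against MS but not in SM against SS. Nr4a2, a relative of Nr4a3, had a difference of -0.42 in SM against SS (limma's adjusted p = 0.215) and rose by 0.76 in MM against MS (limma's adjusted p = 0.0262), and the difference between the comparisons passed (-1.18, limma's adjusted p = 0.00758). Nfil3, a leucine zipper repressor, had a difference of 0.36 in SM against SS (limma's adjusted p = 0.199) and rose by 0.94 in MM against MS (limma's adjusted p = 0.00112). For Nfil3 the difference between the comparisons, -0.57 (limma's adjusted p = 0.135), did not pass.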
